A study of Arabidopsis thaliana with 12 samples.

Results

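This section describes 92 probe sets of an Affymetrix Arabidopsis array whose signal was at least 4-fold higher after 3 weeks at 4 °C in both the salicylic acid mutant sid2-1 and wild type, by a similar amount. They were selected on group means of the log2 values, out of 22746 probe sets. Each had to be at least 2 log2 units higher at 4 °C than at 22 °C in sid2-1 and in wild type, with no more than 0.75 between both responses. In all, 100 probe sets met these limits, and the 8 of them that measure COR15A, COR15B, LTI30, COR27, AT4G33980, LCR69, AT2G43590 and AT1G16850 were set aside by the rule. COR47 and AT4G12490, which the rule also names, did not meet the limits. The size and the likeness of the cold responses are therefore how the members were chosen. They are given as a description, without a test.

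The 4 groups held 3 biological replicates each, all of Col-0 plants raised in soil with 12 h of light a day. RNA came from the whole aerial part, taken 4 h after lights on in all groups. Whether a replicate is 1 plant or a pool is not given in the sources used here. The groups were sid2-1 after about 23 days at 22 °C and then 3 weeks at 4 °C, wild type grown in the same way, sid2-1 at 22 °C for about 23 days, and wild type at 22 °C for about 23 days. The cold plants were thus 3 weeks older than the warm ones, and cold and age cannot be told apart. In RNA from whole shoots, a change in the share of a cell type and a change in RNA per cell cannot be told apart either. The mutant sid2-1 is a model with reduced, not absent, salicylic acid, since plants can also make it from phenylalanine, and no salicylic acid level is part of these data.

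Cold acclimation is the gain in freezing tolerance that plants reach over days to weeks of low, non-freezing temperature. The CBF transcription factors switch on many COR genes in it, whose products protect membranes and proteins, while starch breakdown and sugar synthesis supply compatible solutes. Salicylic acid, a hormone of plant defence, is known to build up in Arabidopsis leaves in the cold, mainly through the isochorismate synthase that sid2-1 lacks.

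In the processed values, the 12 arrays had a median log2 signal between 4.39 and 4.47, and replicates correlated across probe sets at 0.978 to 0.990. These medians were taken after processing, so nothing about the raw arrays is read from them. Of the leaf markers, Rubisco activase (RCA) averaged 13.9 in both genotypes at 22 °C. Of the root markers, the root-hair expansin gene EXPA7 stood at 2.2, the lowest value of the table, in all 4 groups. The other measured root marker, LPR2, was well detected, at 9.26 in sid2-1 and 10.2 in wild type at 4 °C and at 8.49 in sid2-1 and 8.98 in wild type at 22 °C. It rose by 0.78 ± 0.17 in sid2-1 and by 1.18 ± 0.17 in wild type (SE, limma, adjusted p = 0.0322 and 0.0034), and 2 of 8 root markers were measured. Both measured flower markers of 10, TUA1 and AGL24, missed the threshold, with responses of 0.33 and -0.51 in sid2-1 and of 0.84 and -0.59 in wild type. Of 5 measured leaf markers, LHCB4.3 and PGRL1B fell and rbcL rose in both genotypes. The part of tissue composition in the members' responses was not tested.

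Among the 92 members, 34 probe sets belong to 1 named gene each, 2 to several genes and 56 are unnamed here. Named probe sets make up 37.0% of the members, against 59.4% of all probe sets. None of the 4 members with a mean response above 5 is named here.

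The members covered a wide range of response sizes. The sid2-1 response ran from 2.00 to 9.50 log2 units with a median of 3.00, and the wild-type response from 2.01 to 9.26 with a median of 2.84. The mean of both was at least 3, or 8-fold, for 45 members and at least 4 for 15. At 4 °C the members lay at a median level of 8.14 in sid2-1 and 8.32 in wild type, against 4.76 in sid2-1 and 4.56 in wild type at 22 °C. In the warm, 31 members averaged below 4 over both genotypes and 82 below 8. The members thus range widely in their signal at 22 °C. Only 2 members, both unnamed here, lay within 0.3 of the lowest value in both warm groups, and no member had 1 value that recurred on 4 or more arrays.

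**Figure D1:**
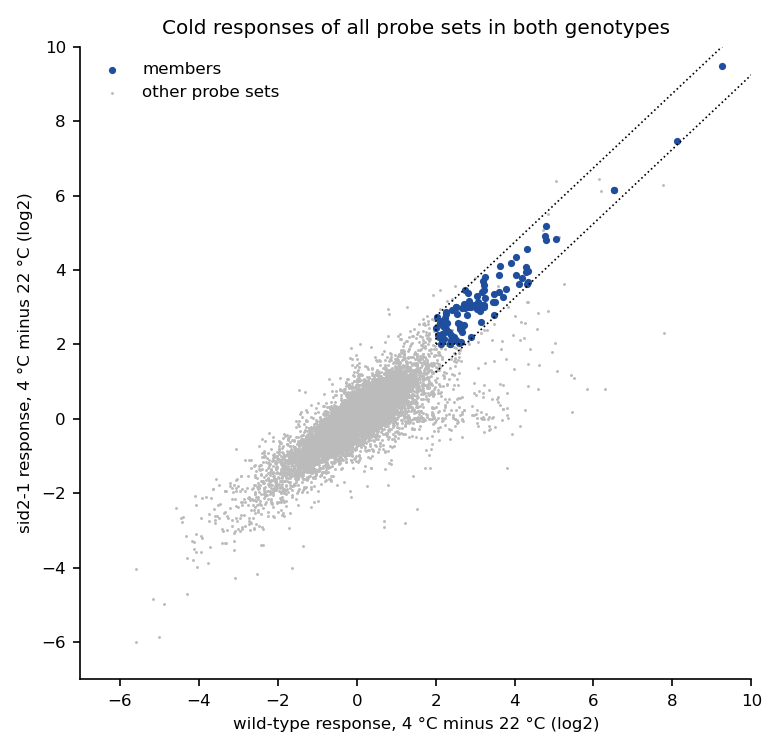
Cold response of sid2-1 (vertical axis) against that of wild type (horizontal axis), each as the group mean at 4 °C minus that at 22 °C in log2 units, for 22746 probe sets. The 92 members (blue) fill the corridor between the dotted limits that chose them, up to 9.50 in sid2-1 and 9.26 in wild type, and the other probe sets are grey.

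The separation of the temperatures is given as a description, since the rule used both contrasts. In 88 of 92 (95.7%) all 3 arrays at 4 °C lay above all 3 at 22 °C in both genotypes, which held for 7.32% of all probe sets. limma called 81 members (88.0%) higher in the cold in sid2-1, against 3.2% of all probe sets, and 84 (91.3%) in wild type, against 6.81% of all. These shares follow from the selection and nothing is read from them. AT2G17710 was the named member whose arrays overlapped. Its values were 6.37, 9.12 and 8.70 in sid2-1 at 4 °C, against 4.53, 6.62 and 6.41 in sid2-1 at 22 °C. In wild type it stood at 8.28, 8.30 and 8.46 at 4 °C, against 4.81, 7.77 and 6.17 at 22 °C, so the overlap was in the mutant.

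The strongest members are probe sets without a gene name here. Probe set 254818_at stood at 12.38, 12.82 and 12.64 in sid2-1 at 4 °C, against 2.86, 3.76 and 2.72 in sid2-1 at 22 °C. In wild type it stood at 12.59, 12.23 and 12.96 at 4 °C, against 3.21, 4.28 and 2.51 at 22 °C. Its signal was thus low in the warm and above 12 on every cold array of both genotypes. The responses were 9.50 ± 0.45 in sid2-1 and 9.26 ± 0.45 in wild type (SE, 3 arrays per group). For each probe set the SEs rest on an estimate of the spread that the 4 groups share, so they are equal in both genotypes. Probe set 254805_at followed, with a response of 7.48 ± 0.35 in sid2-1 and 8.12 ± 0.35 in wild type (SE).

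Among named genes the largest mean response was that of AT1G53035. It stood at 8.13, 7.30 and 9.10 in sid2-1 at 4 °C and at 8.50, 8.16 and 8.97 in wild type at 4 °C, against 2.44, 3.35 and 4.31 in sid2-1 at 22 °C and 3.83, 4.16 and 3.22 in wild type at 22 °C. Both responses came to 4.81 ± 0.57 (SE), that is 28.1-fold in sid2-1 and 28.0-fold in wild type. AT1G11210, a gene of a plant family of unknown function, followed with 3.98 ± 0.54 in sid2-1 and 4.35 ± 0.54 in wild type.

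AT5G51570 encodes a protein of the SPFH (band 7) family, relatives of the prohibitins that sit at membranes. Its values were tight, at 8.78, 8.78 and 9.09 in sid2-1 and 9.33, 9.69 and 9.47 in wild type at 4 °C, against 5.02, 4.92 and 5.36 in sid2-1 and 5.0, 5.36 and 5.54 in wild type at 22 °C. The response was 3.78 ± 0.17 in sid2-1 and 4.2 ± 0.17 in wild type (SE), and at 4 °C all mutant arrays lay below all wild-type arrays. AT1G52200 encodes a small cysteine-rich protein of the PLAC8 family. At 4 °C it stood at 7.63, 8.51 and 9.63 in sid2-1, below the 9.75, 10.51 and 10.18 of wild type, while at 22 °C the 4.77, 5.42 and 4.74 of sid2-1 overlapped the 5.35, 7.09 and 5.08 of wild type. Its responses, 3.61 ± 0.62 in sid2-1 and 4.31 ± 0.62 in wild type, are those of a named member that only just met the limit on the difference.

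AT5G62360, which encodes a protein of the family of invertase and pectin methylesterase inhibitors, varied more between replicates than any other named member. At 4 °C it stood at 8.55, 5.78 and 10.30 in sid2-1 and at 8.14, 6.75 and 10.01 in wild type, in both genotypes with replicate 2 lowest and replicate 3 highest. At 22 °C the values were 4.69, 4.29 and 4.75 in sid2-1 and 4.28, 3.62 and 4.65 in wild type. The response was 3.63 ± 1.13 in sid2-1 and 4.12 ± 1.13 in wild type (SE). AT4G30650 belongs to the family of small hydrophobic membrane proteins induced by low temperature and salt. It had the highest mean level of the named members, with 11.17, 11.34 and 11.25 in sid2-1 at 4 °C and 10.87, 10.63 and 10.70 in wild type at 4 °C, against 7.83, 8.29 and 8.63 in sid2-1 and 8.43, 7.21 and 9.01 in wild type at 22 °C. In the cold every mutant array lay above every wild-type array, and in the warm the genotypes overlapped. The response was 3.00 ± 0.40 in sid2-1 and 2.52 ± 0.40 in wild type (SE). Of the 92 members, 3 had all mutant arrays above all wild-type arrays at 4 °C, AT4G30650 among them. Another 3 had all mutant arrays below, among them AT5G51570 and AT1G52200. This order of the arrays was not tested, and nothing is read from it.

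For starch, sugar and chloroplast functions single named genes are described. Most members have no gene name here, so the genes of a function are not counted. PWD (AT5G26570) encodes phosphoglucan water dikinase, which phosphorylates glucan chains at the starch granule and is needed for normal starch breakdown. It stood at 10.34, 10.57 and 10.12 in sid2-1 and 10.24, 9.58 and 10.03 in wild type at 4 °C, against 7.22, 7.42 and 6.89 in sid2-1 and 7.35, 7.19 and 6.80 in wild type at 22 °C. The cold level was 8.98-fold higher in sid2-1, a log2 response of 3.17 ± 0.22, and 7.14-fold higher in wild type, a log2 response of 2.84 ± 0.22 (SE). The symbol PWD is also carried by the locus AT4G24450, which is no member. Its probe set had responses of -1.27 ± 0.26 in sid2-1 and -1.59 ± 0.26 in wild type (SE), so the symbol alone does not identify the member. AT5G66530, annotated in general as a protein like galactose mutarotases, had responses of 2.01 ± 0.38 in sid2-1 and 2.13 ± 0.38 in wild type.

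CHL (AT3G47860) encodes the chloroplastic lipocalin, a protein that protects thylakoid lipids from oxidation. Its signal was 10.41, 10.31 and 10.85 in sid2-1 and 10.51, 9.86 and 10.69 in wild type at 4 °C, against 7.64, 7.65 and 7.60 in sid2-1 and 7.71, 7.24 and 6.76 in wild type at 22 °C. The cold level was 7.43-fold higher in sid2-1 and 8.67-fold higher in wild type, with no overlap between temperatures. The genotypes overlapped at both temperatures.

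Proteases and peptidases form the one function for which the gene synonyms gave more than 1 member. SCPL49 (AT3G10410) and scpl35 (AT5G08260) encode serine carboxypeptidase-like proteins, and MAP1C (AT1G13270) a methionine aminopeptidase, which removes the first methionine of new proteins. SCPL49 stood at 9.18, 9.65 and 9.59 in sid2-1 and 9.74, 10.18 and 9.56 in wild type at 4 °C, against 6.41, 6.29 and 6.66 in sid2-1 and 6.46, 6.69 and 6.62 in wild type at 22 °C. Its response was 3.02 ± 0.18 in sid2-1 and 3.24 ± 0.18 in wild type (SE). That of scpl35 was 3.06 ± 0.37 in sid2-1 and 3.16 ± 0.37 in wild type, and that of MAP1C 2.27 ± 0.36 in sid2-1 and 2.16 ± 0.36 in wild type. The folds of both carboxypeptidase genes lay between 8.11 and 9.43 in both genotypes.

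AT3G55580 encodes a protein with RCC1 repeats. It stood at 7.85, 8.89 and 8.54 in sid2-1 and 8.13, 7.42 and 8.60 in wild type at 4 °C, against 4.45, 4.17 and 4.35 in sid2-1 and 4.59, 4.50 and 4.17 in wild type at 22 °C. Its warm values lay within a narrow band, and its response was 17.2-fold in sid2-1 and 12.4-fold in wild type. AT1G07050, a gene with a CCT motif as found in CONSTANS, was at 2.70, 2.70 and 2.71 in sid2-1 and 2.2, 2.2 and 2.70 in wild type at 22 °C, so its responses of 3.01 ± 0.62 in sid2-1 and 2.84 ± 0.62 in wild type start near the lowest value. AT1G52770, of the NPH3 family known from phototropism, had responses of 2.59 ± 0.15 in sid2-1 and 2.12 ± 0.15 in wild type (SE).

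The remaining genes among the 15 largest named responses were AT5G52390, AT3G27210, AT4G19390 and AT5G14550. AT5G52390 responded by 3.49 ± 0.55 in sid2-1 and 3.79 ± 0.55 in wild type, AT3G27210 by 3.05 ± 0.43 in sid2-1 and 3.24 ± 0.43 in wild type (SE). At 22 °C AT5G52390 averaged 2.76 in sid2-1 and 2.40 in wild type, so its wild-type response starts near the lowest value, 2.2. AT4G19390 responded by 2.96 ± 0.36 in sid2-1 and 3.06 ± 0.36 in wild type, AT5G14550 by 3.00 ± 0.24 in sid2-1 and 2.89 ± 0.24 in wild type. AT5G14550 belongs to a family of glycosyltransferases, and AT5G52390 to the PAR1 family. AT1G80130, a gene with tetratricopeptide-like repeats, was marked by 1 low pair of warm arrays. At 22 °C it stood at 5.68, 7.58 and 8.31 in sid2-1 and 5.55, 8.56 and 8.43 in wild type, below the 9.73, 10.85 and 10.28 in sid2-1 and 10.61, 10.18 and 9.90 in wild type at 4 °C. Replicate 1 was the low one in both genotypes.

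**Figure D2:**
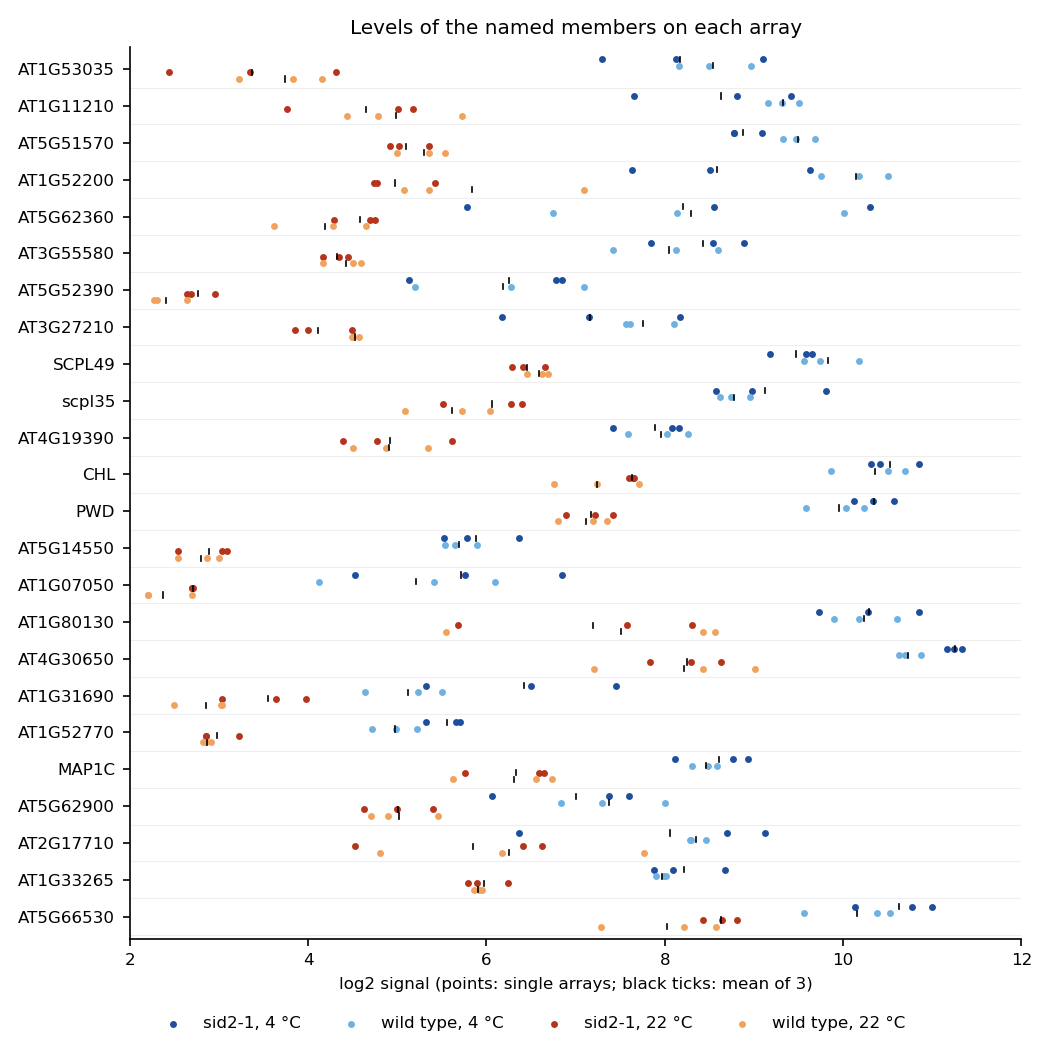
Log2 signal of 24 named members on each of the 12 arrays, in order of the mean cold response from top to bottom. Points are single arrays and black ticks are means of 3. The blue points of 4 °C lie right of the red and orange points of 22 °C in both genotypes, except in sid2-1 for AT2G17710, where 6.37 at 4 °C lies between the warm values of 4.53 and 6.62.

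The likeness of both responses was measured with limited precision. The response of sid2-1 minus that of wild type ran from -0.69 to 0.72 over the members, with 46 larger in sid2-1 and 46 larger in wild type. The SE of this difference was between 0.22 and 1.98, with a median of 0.61, which is close to the limit of 0.75 itself. In 92 of 92 members the 95% interval of the difference reached past 0.75 in at least 1 direction, in 59 it stayed within 2, and in 11 within 1. With replicate numbers as blocks within each temperature it reached past 0.75 in 87 of 92 and stayed within 0.75 in the other 5. Without blocks the narrowest interval was that of AT1G52770, from -0.03 to 0.97 around a difference of 0.47, and with blocks it ran from 0.09 to 0.85, above 0. The narrowest interval with blocks was that of AT2G25730, from -0.14 to 0.06, against -0.76 to 0.69 without them. AT1G07050 was also among the 5, with an interval from -0.34 to 0.67 with blocks and from -1.82 to 2.15 without. AT2G25730 was chosen after its values were seen, and the difference itself chose all members, so these intervals are descriptions. The members are therefore called by their similar measured responses, and salicylic acid itself was not measured.

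**Figure D3:**
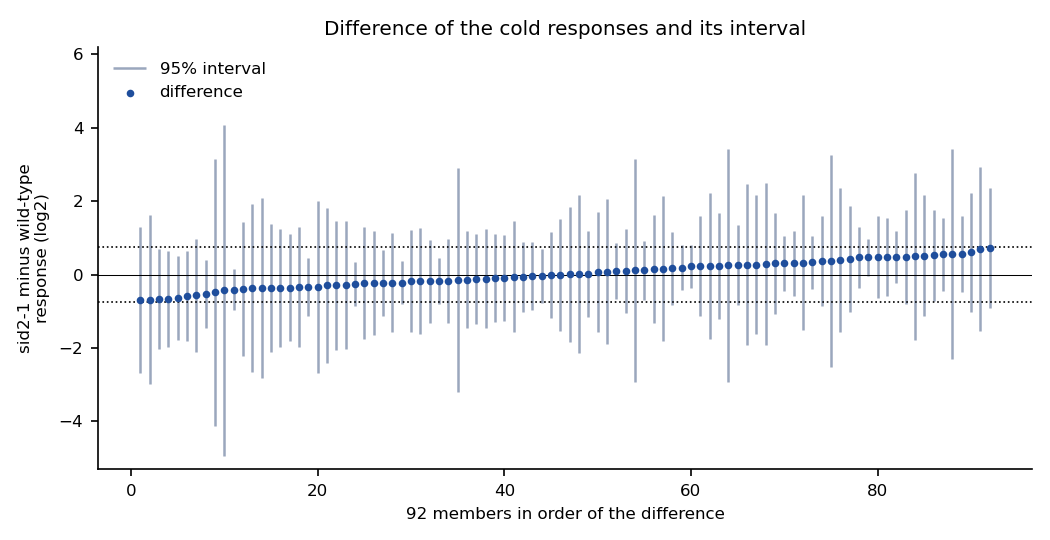
Cold response of sid2-1 minus that of wild type (points, log2 units) with its 95% interval from limma without blocks (lines) for the 92 members in order of the difference. The points lie within the dotted limits of 0.75 by selection, and each of the 92 intervals crosses at least 1 of the limits.

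The genotype difference averaged over both temperatures was not used to choose the members, and it was tested. It is independent of both cold responses only where the spread is the same at both temperatures. The median SD of the members was 0.55 at 4 °C and 0.43 at 22 °C in sid2-1, and 0.38 and 0.47 in wild type. In single members it differed more, as in 253416_at in sid2-1, with 1.06 at 4 °C and 0.02 at 22 °C. The test asked whether the members' levels as such differed between sid2-1 and wild type. limma called 0 of 92 members at an adjusted p under 0.05, against 0.176% of all probe sets (40 of 22746, of which 39 were lower in sid2-1). At an unadjusted p under 0.05 there were 5 members (5.43%), against 7.93% of all probe sets. The smallest adjusted p among the members was 0.395. With replicate numbers as blocks within each temperature 0 members and 0 of all probe sets were called, with 9 members (against 10.3% of all probe sets) at an unadjusted p under 0.05. The smallest adjusted p of a member with blocks was 0.129, for AT2G25730 (limma, unadjusted p = 0.00025).

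The differences were balanced around 0. The median over the members was 0.01, against 0.00 over all probe sets, with 47 members higher and 45 lower in sid2-1. Their median size was 0.26, against 0.16 over the 12422 that averaged above 4 on the 12 arrays. The within-group SD of the members was larger as well, with a median of 0.55 against 0.30 for those probe sets. For 49 members the 95% interval of the genotype difference lay within 1 log2 unit either way, and for the others it reached past 1.

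In the fit without blocks, the 5 members at an unadjusted p under 0.05 went both ways. AT5G51570 (-0.41 ± 0.12, SE) and AT1G52200 (-1.21 ± 0.44) were lower in sid2-1, as was probe set 245904_at (-0.51 ± 0.19). AT1G52770 (0.35 ± 0.11) and AT1G31690 (1.00 ± 0.36), a copper amine oxidase gene, were higher in sid2-1. None of the 5 passed the adjustment, with adjusted p from limma between 0.395 and 0.566. With blocks, AT5G51570, AT1G52200 and AT1G52770 stayed under an unadjusted p of 0.05. AT1G31690 and probe set 245904_at did not, at 0.0614 and 0.0631 (limma). AT2G25730, AT1G07050, AT5G66530 and probe sets 247348_at, 252527_at and 261266_at came in. AT1G31690 stood at 6.50, 7.45 and 5.32 in sid2-1 and 5.23, 4.64 and 5.50 in wild type at 4 °C, and at 3.64, 3.97 and 3.03 in sid2-1 and 3.03, 3.02 and 2.5 in wild type at 22 °C. A second probe set of AT1G31690 stayed low, with responses of 0.72 ± 0.35 in sid2-1 and 0.37 ± 0.35 in wild type, so the probe sets of this gene differ in their cold response.

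**Figure D4:**
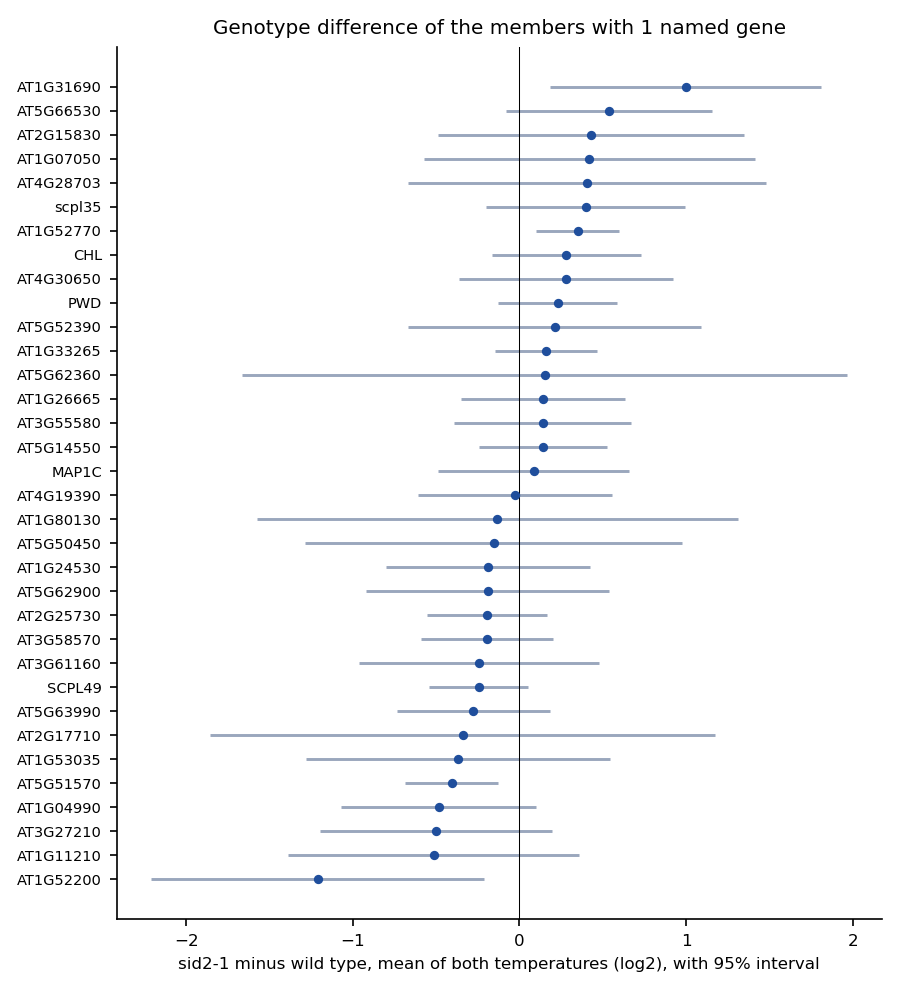
Level in sid2-1 minus wild type, averaged over 4 °C and 22 °C (points, log2 units), with its 95% interval from limma (lines) for the 34 members with 1 named gene. The differences run from -1.21 for AT1G52200 to 1.00 for AT1G31690, and none passed the test after adjustment over all 22746 probe sets.

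The deviations of same-numbered replicates in both genotypes were not used by the selection on means. Over the 92 members, the deviation of an array from its group mean correlated between sid2-1 and wild type of the same number at 0.19, 0.39 and 0.41 at 4 °C and at 0.62, 0.39 and 0.58 at 22 °C (replicates 1, 2 and 3). Over the 12422 averaging above 4, these correlations were 0.21, 0.23 and 0.25 at 4 °C and 0.42, 0.28 and 0.47 at 22 °C. The points are probe sets of the same 2 arrays, so these values are descriptions. At 4 °C same-numbered arrays deviated to the same side in 51, 54 and 48 of 92 members (55.4%, 58.7% and 52.2%), against 56.4%, 57.6% and 55.6% of the 12422. At 22 °C they did so in 62, 55 and 61 members (67.4%, 59.8% and 66.3%), against 60.8%, 53.8% and 60.2%. The same replicate number was highest in both genotypes in 40 of 92 members (43.5%) at 4 °C and in 40 at 22 °C, against 43.5% and 45.4% of the 12422. It was lowest in both in 37 members (40.2%) at 4 °C and 48 (52.2%) at 22 °C, against 41.5% and 44.0%. At 4 °C the members' shares were thus near those of all these probe sets. AT5G62360 at 4 °C and AT1G80130 at 22 °C, described above, are examples of a shared order. What the replicate numbers share is not stated in the labels.

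**Figure D5:**
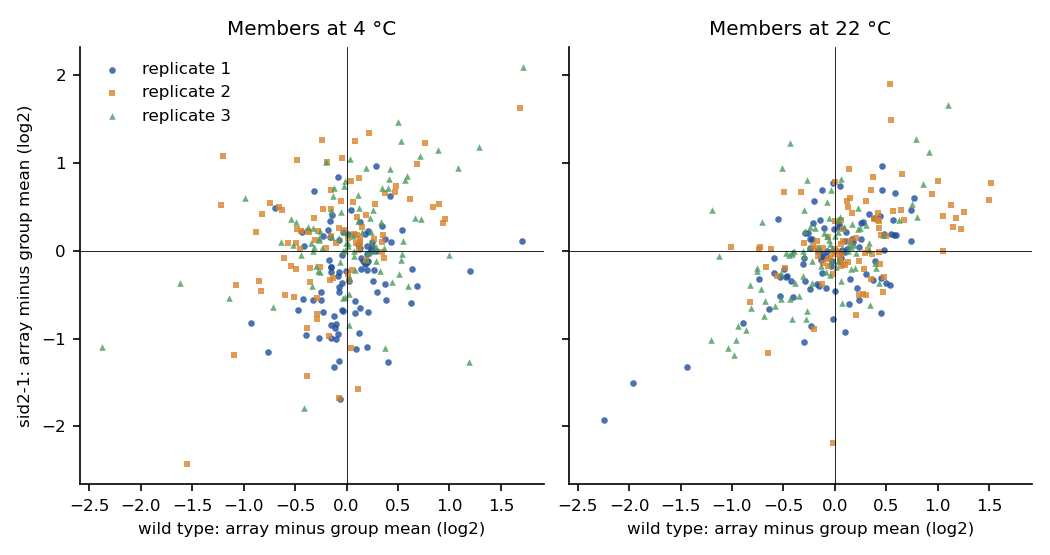
Deviation of each array from its group mean (log2 units) in sid2-1 (vertical axis) against wild type of the same replicate number (horizontal axis) for the 92 members, at 4 °C (left) and 22 °C (right). Colours mark the replicates, whose points correlate at 0.19 to 0.41 at 4 °C and at 0.39 to 0.62 at 22 °C.

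Among the cold arrays, replicate 1 of sid2-1 had the lowest median over the members. In sid2-1 at 4 °C replicate 1 had a median level of 7.85 over the members, against 8.32 and 8.24 in replicates 2 and 3, and 30 of the 92 members (32.6%) lay above their group mean on it, against 40.0% of the 12422 probe sets. The wild-type arrays at 4 °C had medians of 8.25, 8.08 and 8.26. At 22 °C the medians were 4.67, 4.75 and 4.55 in sid2-1 and 4.58, 4.86 and 4.51 in wild type. All cold arrays had a higher median than all warm arrays, which follows from the selection.

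The rule divides a continuous range. AT1G33265 was just inside on the wild-type response, at 2.06 with 2.24 in sid2-1, and AT1G07070 just outside, at 1.85 with 2.15 in sid2-1. On the sid2-1 response, AT5G62900 was inside at 2.00, with 2.36 in wild type, and AT3G16310 outside at 1.97, with 2.08 in wild type. On the difference, AT1G52200 was inside at 0.69 and AT4G33540 outside at 0.77. Of the 132 probe sets with a response of at least 2 in both genotypes, 25 exceeded the limit with the larger response in wild type and 7 with the larger one in sid2-1. Leaving out each array in turn kept 38 of the 92 members every time, among them 13 of the 34 named ones, and every member met the limits in at least 6 of the 12 cases. AT1G53035, SCPL49, scpl35, CHL, PWD, AT5G14550 and AT5G51570 were among those always kept, while AT1G52200 and AT5G66530 were kept in 7 of 12.

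Known cold genes outside the members put these values in context. Of 43 genes of the CBF and COR cold regulon listed from general knowledge, 9 have a named probe set and none is a member, 5 of them being set aside by the rule and COR47 not meeting its limits. Of these 9, limma called 7 higher in the cold in sid2-1 and 5 in wild type. The median log2 responses of the 9 were 2.40 in sid2-1 and 2.45 in wild type. Of all probe sets, limma called 3.2% higher in sid2-1 and 6.81% in wild type. All but DI21 of the 7 are named by the rule. The wild-type median is the value of ZAT10, whose responses were 0.02 ± 0.998 in sid2-1 and 2.45 ± 0.998 in wild type (SE). The difference between these responses was not tested. ZAT10 was called in neither genotype (limma, adjusted p = 0.160 in wild type). COR47 and DI21 were called in sid2-1 only. GI, a circadian clock gene, rose by 2.55 ± 0.24 in sid2-1 and by 1.67 ± 0.24 in wild type (SE), with adjusted p from limma of 0.000990 and 0.0032. GI missed the limit on the wild-type response and also the limit on the difference between both responses. The sugar importer genes of the vacuole, TMT1 and TMT2, had responses of 1.75 ± 0.30 and 1.82 ± 0.38 in sid2-1, and of 1.68 ± 0.30 and 0.70 ± 0.38 in wild type, below the limit of 2 in both genotypes. Of 13 genes of salicylic acid synthesis and response, 0 have a named probe set here, so their levels are not analysed here.

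The named members are spread over all 5 nuclear chromosomes. Chromosomes 1 and 5 hold 12 and 10 of the 34, or 35.3% and 29.4%, beside 25.7% and 22.4% of all named probe sets. Chromosomes 2, 3 and 4 hold 3, 6 and 3. No pair of named members is adjacent in the gene order, the closest pair being AT1G52770 and AT1G53035, which lie 29 protein-coding genes apart.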

How the data were processed

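The series holds 12 single-channel Affymetrix arrays, 1 per sample. The deposited values are log2 signals; per the submitters' processing notes the authors used GCRMA, a background correction and summary of probe intensities, and limma, with no versions given. The lowest deposited value is 2.2, which many probe sets share, so folds from signals near it are limited by that floor. Array intensities carry no counts, and the number of arrays limits precision. Of 22810 probe sets 64 controls were left out. Genes came from the platform annotation, which gives 1 gene for 13513 probe sets, several for 503 and none here for 8730. RefSeq (TAIR10.1) names were joined by Entrez number for 13436. The files name no genome build, so no coordinates are given.

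One linear model with 4 group means was fitted over all arrays (limma 3.58.1, R 4.3.3; lmFit, contrasts.fit, eBayes; 8 residual and 0.609 prior degrees of freedom), two-sided, with Benjamini-Hochberg adjustment over 22746 probe sets and calls at an adjusted p under 0.05. SEs and 95% intervals are limma's, from an estimate of the spread that the 4 groups share. Its 3 tested contrasts took cold minus warm within sid2-1, cold minus warm within wild type, and sid2-1 minus wild type averaged over temperature. The difference of both responses, with its SE and interval, came from a further contrast of the same fit, given without a test. The fit was run on simulated data with noise drawn independently for each array. These data had neither the link between same-numbered arrays nor the floor, so they checked the calculation only. Tables and plots used Python 3.11.15, pandas 2.3.3 and matplotlib 3.10.9.

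Members, lists and tests were chosen with earlier results of these data known. Named genes are the 15 largest mean responses, up to 3 per keyword class (13 classes, searched in gene synonyms, which placed 4 members), the 3 smallest p of the genotype difference, the 3 highest levels, the 3 largest spreads, those nearest the limits, and any in a list or adjacent to another member. Names given outside it, such as the unnamed leading probe sets, were chosen after their values were seen. Family roles of loci are general knowledge, not from the files.

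Same-numbered arrays of sid2-1 and wild type deviated together within a temperature, with correlations of 0.21 to 0.47 in all 6 pairs over probe sets with a mean above 4, so the numbers pair the genotypes there. Between temperatures the correlations of same-numbered arrays were -0.05 to 0.37, the highest for replicate 1 of sid2-1 at 4 °C and wild type at 22 °C. Since no set of 3 was over 0.1 throughout, the numbers were not taken as pairs there.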

Additional observations from a re-analysis of the deposited data

How the results depend on the processing

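No member was called for the genotype difference under any of the 16 alternatives run (0 in each). Over all probe sets that count was 40, and 42 with a replicate block, 0 with a replicate block within each temperature, 122 with dim probe sets left out, and 12 to 139 when each array was left out in turn. The lowest, 12, was without replicate 3 of sid2-1 at 22 °C, and replicates 1 and 2 of that group gave 15 and 17. The highest, 139, was without replicate 3 of wild type at 4 °C, where replicate 2 gave 62. Leaving out replicate 1 or 2 of sid2-1 at 4 °C gave 24 and 25, and replicate 1 or 2 of wild type at 22 °C gave 15 and 25. The cause was not tested. Calls of the cold response in sid2-1 (1428) came to 2243 with dim probe sets left out, 376 in a fit of those groups alone and 788 to 1457 with an array left out, the lowest without sid2-1 replicate 1 at 22 °C. In wild type (2956) they came to 1407 in a fit of those groups alone and 1865 to 2859 with an array left out, the lowest for replicate 2 of wild type at 4 °C, and 1888 for replicate 3 of wild type at 22 °C. The number of members (92) was 182 with responses of at least 1.5 and 58 with at least 2.5, both fixed by the limit itself, 76 and 103 with differences within 0.5 and 1, 95 with group medians, 77 of them shared, and 80 to 107 with an array left out. The replicate block changed no call of a member for the genotype difference. All 862 alternative values of single named genes kept their direction and their side of the threshold where tested. For the cold responses this follows largely from the selection, and nothing is read from it. The planned search for promoter motifs, with its 2 alternatives, was not run and promoters are not analysed here.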
